A study of Mus musculus with 9 samples.

Results

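The integrin and laminin genes made up 29 of the 14771 named genes in a table of normalized reads from mouse brain tumour cells and control astroglia. They were chosen by symbol alone, as every gene named Itga or Itgb plus a number or letter (integrin chains) or Lama, Lamb or Lamc plus a number (laminin chains). The set held 13 integrin alpha, 6 integrin beta, 5 laminin alpha, 2 laminin beta and 3 laminin gamma chains. Of 38 symbols of this form in a RefSeq gene table, Itga5, Itga8, Itgae, Itgal, Itgam, Itgb2l, Itgb5, Itgb6 and Lamb3 were not analysed here.

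The study profiled RNA of 3 groups of cells, with 3 libraries each. The astroglia (AG), of strain C57BL/6, carried p53 DN and Nf1 shRNA. The brainstem (BS) and olfactory bulb (OB) tumour cells, of a 129;C57BL/6 mix, carried Foxr2 overexpression and p53 cko, Foxr2 being a forkhead transcription factor. Every group thus had p53 altered, the controls alone had Nf1 targeted, and the tumour cells differed from AG in strain, genotype and tissue at once, which cannot be told apart. The labels name neither the vector or promoter behind each change nor the age of the animals, and nothing in them says whether libraries of 1 group stem from different animals or cultures. The p-values therefore measure the spread between these libraries, which may be technical.

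Integrins are cell surface receptors in which an alpha and a beta chain pair and together bind matrix proteins or other cells. Inside the cell their tails connect through talin, vinculin and parvins to actin. Laminins are cross-shaped matrix proteins, each a trimer of an alpha, a beta and a gamma chain, and they form the base of basement membranes. In the brain, laminins line blood vessels and the pial surface, and astrocyte endfeet and migrating progenitor cells attach to them through integrins and dystroglycan.

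Library totals ran from 11300273 to 19868282 reads. The altered genes went with the labels: Foxr2 had 0 to 0.99 normalized reads in AG against 4505 to 12567 in the tumour libraries, and Nf1 had 1334 to 1588 in AG against 4184 to 8619.7. Trp53 stood at 17.7 to 51.4 in all groups, and a count over a whole gene does not check a partial deletion. The 3 AG libraries correlated with each other across genes at 0.992 to 0.993, the 6 tumour libraries at 0.841 to 0.959 (Pearson, log2 values). OB_257 (mean correlation with the other tumour libraries 0.855) and BS_287 (0.882) stood apart from the other 4, which had 0.916 to 0.923. The summed astrocyte list (9 of 10 genes) ran from 10670 to 10827 in AG and from 15795 to 53120 in the tumour libraries. Of its members with 1 annotated transcript, Gja1 (4961 to 5396 in AG, 1.11 to 2879 in the tumour libraries) was lower in every tumour library, and the ranges of Sox9 (2328 to 2947, 25.4 to 5229) overlapped. Glul (2068 to 2134, 3871 to 18188) was higher in every tumour library, and Slc1a3 (753 to 855, 88.4 to 25665) and S100b (25.0 to 27.2, 5.87 to 6616) in all but 1. Gfap, Aqp4, Aldoc and Aldh1l1, which have several annotated transcripts, stood at 0 to 5.91 in AG, with Gfap at 6.4 to 91.4 in BS. The summed oligodendrocyte precursor list (8 of 8 genes) ran from 17.4 to 22.5 in AG and from 46172 to 95546 in the tumour libraries. The neuron list (6 of 7) ran from 1062 to 1089 in AG, while BS held 4481 to 6628 and OB 4607 to 9611. The Schwann cell list (5 of 6), which shares S100b and Sox10 with the glial lists, ran from 689 to 713 in AG. In the tumour libraries it ran from 935 to 37162, the latter in OB_257 and nearly all Sox10 (30528) and S100b (6616). Egr2 was lower in every tumour library (9.23 to 45.9 against 88.7 to 111 in AG). Gap43 had 548 to 598 in AG and 4.42 to 6717 in the tumour libraries, and Pmp22 stayed at or below 3.35. The endothelial list (5 of 9) ran from 923 to 1035 in AG, nearly all of it Flt1, with Cdh5 and Cldn5 at 0. In the tumour libraries the list ran from 11.1 to 244, with Flt1 at 0 to 3.94. Kdr, of the same list, had 7.88 to 10.8 in AG. It was higher in BS_287 (242), BS_295 (84.3), OB_287 (199) and OB_295 (92.4), but not clearly so in BS_296 (12.8) or OB_257 (6.63).

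Each value below is a number of normalized reads, the reads of a gene divided by the size factor of its library. Of the 29 genes, 22 reached 10 normalized reads in at least 3 libraries and were tested. The threshold for a call was an adjusted p of 0.05 in limma, fitted across all 10576 genes that passed this filter. Itga11 passed the filter only through AG, and Itgb7 and Lama1 only through the tumour groups, so a difference in these 3 genes was built into their passing, and their calls are part of the counts given. Itga3, Itga6, Itga7, Itga9, Itgax, Itgb2, Itgb4 and Lama3 have more than 1 annotated RefSeq transcript. In this table genes with 1 transcript had a median value of 259, those with 2 had 12.6 and those with 3 or more had 6.81, and low values of these 8 genes were not read as low expression.

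Most integrin and laminin chains that differed were lower in the tumour cells than in astroglia. In OB, 3 of 22 tested genes were higher (Itga2, Itgb7 and Lama1) and 8 were lower. Over all genes the share called was 16% higher and 19% lower. In BS, 2 were higher (Itgb7 and Lama1) and 11 were lower, beside 15.6% higher and 19.5% lower over all genes. The median log2 change of the 22 genes was -1.25 in OB and -1.22 in BS, beside -0.01 and -0.03 over all genes. Lower in both tumour groups were 7 genes, among them Itga10, Itga11, Itgav, Itgb1, Lama5 and Lamb2. The same AG libraries served both comparisons, so their calls are not independent. The share of all genes called lower in both was not counted, so the 7 cannot be set against it. In bulk RNA, fewer cells of a type and less RNA per cell cannot be told apart. With upper-quartile scaling the median of all genes moved to 0.18 in both comparisons and the share of calls that were higher went from 45.7% to 56.3% in OB and from 44.5% to 56.1% in BS. The direction of every called member stayed as given.

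**Figure D1:**
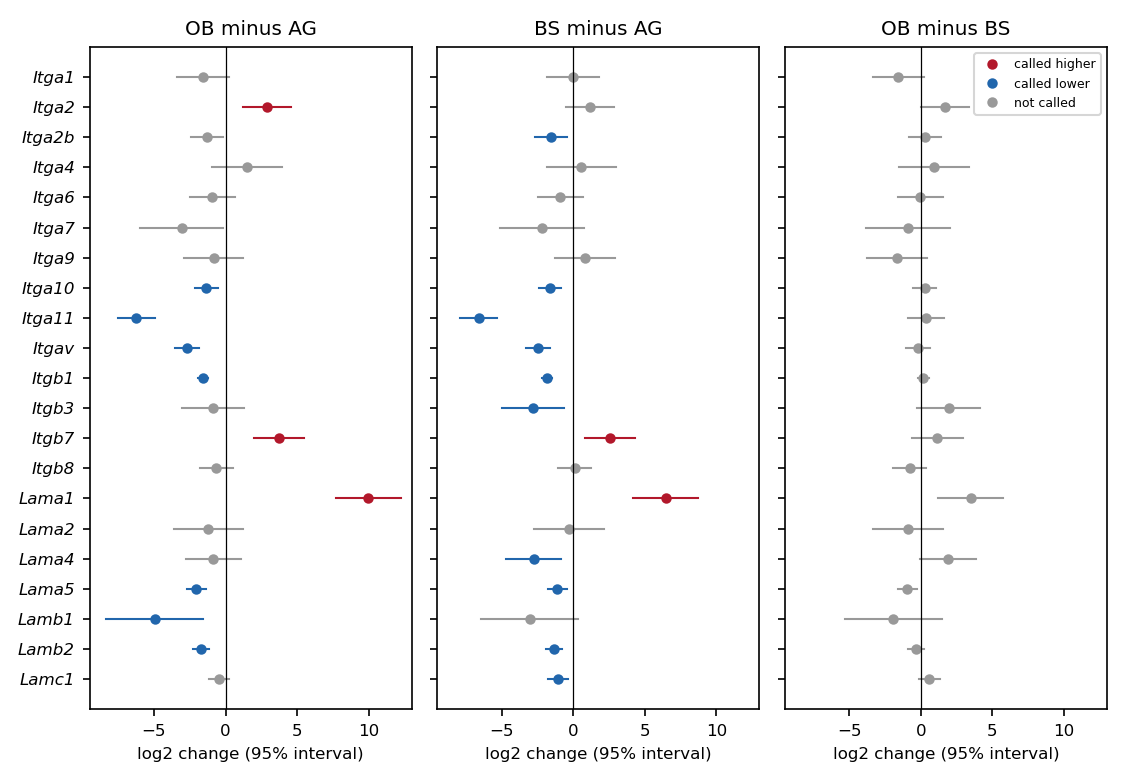
Log2 change with its 95% interval for tested integrin and laminin genes in the 3 comparisons, on the log2(normalized reads + 1) scale, red where called higher, blue where called lower and grey where not called. Calls against AG lie mostly left of 0, Lama1 lies farthest to the right, and the comparison of OB with BS holds 0 calls.

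Itgb1, the beta chain shared by the largest group of integrins, and Itgav, the alpha chain that binds the RGD motif of fibronectin and vitronectin, had the most reads per kilobase in AG of the beta and alpha chains with 1 annotated transcript. Values are given in the order AG_1, AG_2, AG_3, then BS_287, BS_295, BS_296, then OB_257, OB_287, OB_295. Itgb1 had 53645, 55416 and 57865 normalized reads in AG, 17160.1, 17953 and 13166 in BS and 18993, 19019 and 16581 in OB. All 6 tumour libraries lay below all AG libraries and close to each other. The mean was 28.9% of AG in BS and 32.7% in OB, and the log2 change was -1.80 ± 0.15 (SE; limma, adjusted p = 6.05e-05) in BS and -1.61 ± 0.15 (SE; limma, adjusted p = 0.00011) in OB. With quantile normalization these were -1.14 and -0.90 and still called. Itgav had 18694, 19612 and 20779 in AG, 2352, 6403 and 2854 in BS and 2201, 3979 and 3245 in OB. Again the groups did not overlap, and BS_295 held the highest tumour value. Itgav fell to 19.6% of AG in BS and 16.0% in OB, with log2 changes of -2.49 ± 0.37 (SE; limma, adjusted p = 0.00117) and -2.69 ± 0.37 (SE; limma, adjusted p = 0.000778).

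Itga10 and Itga11 are collagen-binding alpha chains that pair with the beta chain of Itgb1. Itga11 had 496, 516 and 453 normalized reads in AG, 4.19, 2.13 and 6.9 in BS and 9.95, 1.9 and 7.61 in OB. The tumour values sat near the floor of 3 reads per library, far below AG. Itga11 stood at 0.902% of AG in BS and 1.33% in OB, with log2 changes of -6.60 ± 0.56 (SE; limma, adjusted p = 6.17e-05) and -6.23 ± 0.56 (SE; limma, adjusted p = 8.67e-05). Itga10 had 252, 273 and 261 in AG, 72.1, 82.1 and 100.49 in BS and 64.1, 155 and 107 in OB. No tumour library reached the AG range, and the fall was smaller, to 32.4% in BS and 41.4% in OB. The log2 changes of Itga10 were -1.63 ± 0.34 (SE; limma, adjusted p = 0.00722) and -1.35 ± 0.34 (SE; limma, adjusted p = 0.0162). The OB call was lost without AG_1 (-1.38), AG_2 (-1.32) or AG_3 (-1.35).

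The summed fibroblast and smooth muscle lists were lower in the tumour libraries, as were these genes, but not every marker in them was. The summed fibroblast and meningeal list (7 of 7 genes) ran from 35653 to 46420 in AG and from 11.1 to 221 in the tumour libraries, with Dcn at 0 in BS and OB. Col1a1, a subunit of type I collagen, made up most of it. The pericyte and smooth muscle list (5 of 7) ran from 58728 to 62376 in AG, mostly Acta2, and from 854 to 2811 in the tumour libraries, mostly Notch3. Notch3 itself went the other way, with 18.7 to 30.5 in AG and 761 to 2767 in the tumour libraries. The epithelial list (3 of 7) ran from 284 to 308 in AG, nearly all of it Cdh1, and from 11.7 to 94.6 in the tumour libraries. Its gene Epcam had higher means in the tumour groups (3.86 in AG, 22.8 in BS and 12.9 in OB). The part of such cells or states in the integrin and laminin values was not tested.

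Of the 7 genes lower in both tumour groups, 6 had an entry in the RefSeq promoter table (GRCm38.p6). Each entry spans 250 bases before to 50 after the gene's start. Both strands were searched for TEAD (GGAATG), AP-1 (TGANTCA), E-box (CAGCTG) and SOX (AACAAT) letters. TEAD letters were in 2 of the 6 and in 14.6% of 27025 promoters. AP-1, E-box and SOX letters were in 0 of the 6, beside 7.93%, 16.1% and 10.9% of all promoters. Over the 17 members with an entry the counts were 2 for TEAD, 2 for AP-1, 5 for E-box and 1 for SOX. The 3 windows shown belong to the beta chain and to both collagen-binding alpha chains that fell with it, and capitals mark the TEAD letters, at position -7 from the start in Itgb1 and, on the opposite strand, at -75 in Itga10. Itgb1 is at chr8:128685404-128685703, Itga10 at chr3:96645334-96645633 and Itga11 at chr9:62677605-62677904, each on the plus strand.
Itgb1: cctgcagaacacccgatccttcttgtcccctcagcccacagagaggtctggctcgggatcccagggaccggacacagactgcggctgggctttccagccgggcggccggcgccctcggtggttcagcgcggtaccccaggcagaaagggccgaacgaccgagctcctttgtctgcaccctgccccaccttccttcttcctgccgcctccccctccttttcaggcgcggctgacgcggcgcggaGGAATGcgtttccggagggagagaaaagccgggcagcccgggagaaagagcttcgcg
Itga10: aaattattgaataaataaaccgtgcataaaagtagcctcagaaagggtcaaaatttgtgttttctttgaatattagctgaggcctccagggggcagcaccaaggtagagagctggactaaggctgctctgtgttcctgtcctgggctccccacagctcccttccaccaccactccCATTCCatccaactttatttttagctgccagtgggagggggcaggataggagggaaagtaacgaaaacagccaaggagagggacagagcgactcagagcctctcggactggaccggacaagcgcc
Itga11: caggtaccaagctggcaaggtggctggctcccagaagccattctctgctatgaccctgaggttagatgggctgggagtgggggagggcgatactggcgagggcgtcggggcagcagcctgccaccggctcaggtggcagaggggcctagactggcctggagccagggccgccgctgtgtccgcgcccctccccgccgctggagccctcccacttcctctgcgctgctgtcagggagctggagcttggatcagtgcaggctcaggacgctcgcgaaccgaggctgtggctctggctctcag
A match is a description of the letters and not of a bound site.

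Itga2 was the alpha integrin chain that rose, in OB. Itga2, the alpha chain of the collagen and laminin receptor of epithelia and platelets, had 30.0, 30.6 and 46.8 normalized reads in AG, 302, 46.9 and 36.5 in BS and 377, 196 and 245 in OB. All 3 OB libraries lay above AG, whereas in BS only BS_287 stood far above the AG range. The OB mean was 7.61 times that of AG, with a log2 change of 2.87 ± 0.73 (SE; limma, adjusted p = 0.0164). In BS it was 1.18 ± 0.73 (SE; limma, adjusted p = 0.246) and was not called. The OB call was lost without AG_1 (2.76) or AG_2 (2.77), and DESeq2 called Itga2 in BS (1.87). Without BS_287 the BS change was 0.23.

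Itga2b and Itgb3 encode the chains of the platelet fibrinogen receptor, and the product of Itgb3 also pairs with that of Itgav. Itga2b had 202, 180.4 and 156 normalized reads in AG, 131, 30.9 and 52.2 in BS and 60.8, 74.2 and 83.7 in OB. All tumour libraries were lower than AG, with BS_287 nearest to it. The log2 change was -1.56 ± 0.49 (SE; limma, adjusted p = 0.0369) in BS and, not called, -1.29 ± 0.49 (SE; limma, adjusted p = 0.0703) in OB. Itgb3 had 282, 289 and 335 in AG, 166, 16.0 and 27.6 in BS and 563, 69.5 and 114 in OB. OB_257 held the highest value of all 9 libraries, and the other 5 tumour libraries lay below AG. The log2 change was -2.80 ± 0.95 (SE; limma, adjusted p = 0.0498) in BS and, not called, -0.86 ± 0.95 (SE; limma, adjusted p = 0.514) in OB. With OB_257 and BS_287 both left out, a choice made after seeing the data, the OB changes were -1.75 for Itgb3 and -1.17 for Itga2b, and both were called. Both BS calls were close to the threshold. That of Itgb3 was lost in 16 of 25 alternatives, among them without AG_1 (-2.85), AG_2 (-2.83), AG_3 (-2.72), BS_295 (-2.13), BS_296 (-2.50) or OB_295 (-2.80). That of Itga2b was lost in 9, among them without AG_1 (-1.47), AG_2 (-1.55), AG_3 (-1.66), BS_295 (-1.10), BS_296 (-1.47) or OB_295 (-1.56). The OB change of Itga2b was called without BS_287 or BS_295, with the same size of -1.29. The platelet list (4 of 5 genes) summed to 93.6 to 109.98 in AG, against 114 to 414 in BS and 88.4 to 163 in OB, and Pf4, a platelet chemokine, had 243 in BS_287 and 0 to 2.96 in the other 8 libraries. Without BS_287 the BS change was -2.12 for Itga2b and -3.78 for Itgb3, and both stayed called.

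Itgb7, a beta chain of leukocytes that pairs with the alpha chains of Itga4 and Itgae, had few reads. It ranged from 0 to 1.09 normalized reads in AG (2 reads in all), from 3.94 to 29.4 in BS (43 reads) and from 9.52 to 28.7 in OB (61 reads). All 6 tumour libraries were above AG. From the summed reads it was 33.2 times higher in OB (95% interval 8.81 to 281) and 21.4 times in BS (5.58 to 182), intervals that cover counting error only. The log2 changes were 3.72 ± 0.78 (SE; limma, adjusted p = 0.00654) and 2.56 ± 0.78 (SE; limma, adjusted p = 0.0328). The BS call was lost without AG_1 (2.68), AG_2 (2.24) or AG_3 (2.77), with quantile normalization (2.14) and with a pseudocount of 5 (1.33), and the change was 4.14 in edgeR. The leukocyte and microglia list (4 of 12 genes) summed to 58.8 to 65.0 in AG, against 40.5 to 108 in BS and 39.1 to 87.6 in OB, and held Csf1r at 0 to 3.81 and Cd53 at 0 to 1.09 in the tumour libraries.

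Of the other integrin chains, Itga4, a receptor chain for fibronectin and VCAM-1, spread widely among the tumour libraries. It ranged from 521 to 546 normalized reads in AG, from 153 to 2442 in BS and from 507 to 4840.1 in OB. BS_287 lay below AG, OB_257 just below it, and the other 4 tumour libraries above, and the log2 changes of 0.57 (adjusted p in limma 0.713) and 1.501 (0.302) were not called. With OB_257 and BS_287 both left out they were 1.75 and 2.29 and both called. Itgb8, whose product pairs with that of Itgav and activates latent TGF-beta, ranged from 1099.8 to 1191 in AG, while BS held 604 to 2363 and OB 411 to 1078, with log2 changes of 0.10 and -0.65. The AG values lay inside the spread of BS. Itga1, a collagen and laminin receptor chain, ranged from 289 to 334 in AG and 139 to 467 in BS, and OB held 27.6 to 245, all 3 libraries below AG without a call (-1.57, 95% interval -3.37 to 0.23). Itga9, a receptor chain for tenascin, ranged from 74.0 to 124 in AG, against 37.4 to 557 in BS and 32.1 to 110.4 in OB, and without BS_296 it was called higher in BS (1.95 against 0.83 with all libraries). The laminin receptor chains Itga6 and Itga7 stayed at or below 55.2 in every library and had no call, with Itga7 at 0 to 13.3 in OB against 42.5 to 50.3 in AG. Without both OB_257 and BS_287 the BS change of Itga7 was -3.30 and called.

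The other 5 integrin genes were not tested. Itga3, a laminin receptor chain, had 19 reads in AG, 0 in BS and 1 in OB, which made it at least 2.07 times higher in AG than in BS against a floor of 3 reads per library. Itgad, a leukocyte chain, had 16 reads in OB, nearly all in OB_257 (16.6 normalized reads), and 0 in AG and BS. Itgax and Itgb2, both of leukocytes, and Itgb4, the laminin receptor chain of epithelial hemidesmosomes, stayed at or below 6.63 normalized reads in every library.

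**Figure D2:**
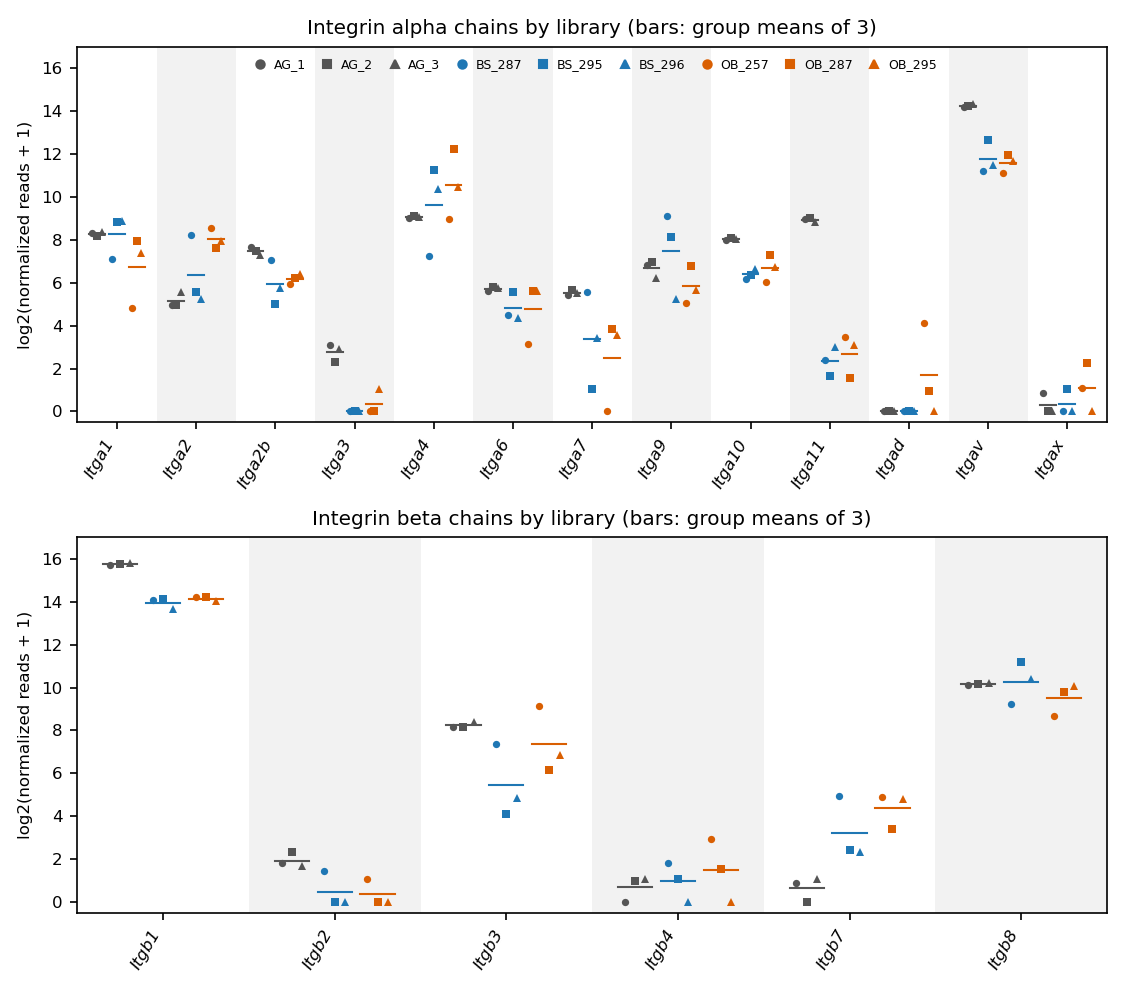
Normalized reads of the 19 integrin genes in each library, as log2(normalized reads + 1), with alpha chains above and beta chains below, grey for AG, blue for BS and orange for OB, and a bar at the mean of the 3 plotted log values of each group. Itgb1 and Itgav have the highest means in every group and are lower in all 6 tumour libraries, Itga11 is at 453 to 516 normalized reads in AG and at 1.9 to 9.95 in the tumour libraries, and Itga4 and Itgb3 spread widely among the tumour libraries.

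Among the laminin alpha chains, Lama1, the chain of early embryonic laminin, had reads in every tumour library. Lama1 had 0 reads in each AG library, which allows up to 3 reads in each, 15.9, 226 and 180.3 normalized reads in BS and 725, 2584 and 513 in OB. OB lay above BS in every library, and within BS the library BS_287 lay far below the others. Against a floor of 3 reads per library the mean was at least 438 times higher in OB and at least 48.4 times higher in BS. Lama1 was tested only because its tumour values passed the filter, and the change was called in both groups (limma, adjusted p = 0.000141 and 0.00145). The difference of OB from BS was 3.48 ± 0.99 (SE; limma, adjusted p = 0.339) and was not called.

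Lama4 and Lama5, the chains of blood vessel laminins, fell in BS, and Lama5 also in OB. Lama5 had 12244, 11979 and 10581 normalized reads in AG, 5977, 4971 and 5288 in BS and 2469, 4666 and 1938 in OB. No tumour library reached AG, and all OB libraries lay below all BS libraries. The mean was 46.6% of AG in BS and 26.1% in OB, with log2 changes of -1.10 ± 0.29 (SE; limma, adjusted p = 0.019) and -2.04 ± 0.29 (SE; limma, adjusted p = 0.00096). The BS call was lost with upper-quartile (-0.89) or quantile scaling (-0.72) and without AG_1 (-1.06), AG_2 (-1.08), AG_3 (-1.17), BS_295 (-1.04) or BS_296 (-1.09). Lama4 had 2243, 2419 and 2407 in AG, 73.8, 1005 and 558 in BS and 1167, 833 and 2239.9 in OB. BS_287 was far below the other BS libraries, and OB_295 came close to AG. The log2 change was -2.76 ± 0.84 (SE; limma, adjusted p = 0.0339) in BS and, not called, -0.86 ± 0.84 (SE; limma, adjusted p = 0.46) in OB. The BS call was lost in the fit of the compared groups alone, in edgeR (-2.06) and without AG_1 (-2.80), AG_2 (-2.74) or AG_3 (-2.74). Without BS_287 the BS change of Lama4 was -1.65. Lama2, the chain of muscle and Schwann cell laminin, ranged from 27.5 to 31.5 in AG, against 4.27 to 86.4 in BS and 3.32 to 34.8 in OB, and was not called. Lama3, an epithelial chain, had 16 reads in AG and 0 in both tumour groups, and was not tested.

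The beta chains Lamb1 and Lamb2 fell in OB. Lamb1 had 14218, 14695 and 14263 normalized reads in AG, 2650.2, 1840.2 and 1101 in BS and 25.4, 3395 and 1093 in OB. All tumour libraries were below AG, and OB_257 lay far below all other libraries. The OB mean was 10.5% of AG, with a log2 change of -4.96 ± 1.48 (SE; limma, adjusted p = 0.0309). In BS the mean was 12.9% of AG, and the change of -3.04 ± 1.48 (SE; limma, adjusted p = 0.145) was not called. OB_257 entered the spread of both comparisons: without it the BS change kept its size of -3.04 and was called, and the OB change was -2.90. The OB call was lost without AG_1 (-4.97), AG_2 (-4.95) or AG_3 (-4.97), in the fit of the compared groups alone and in edgeR (-3.22). Lamb2, the beta chain of synaptic and vascular basement membranes, had 4398, 4550.3 and 3787 in AG, 2449.8, 1239 and 1529 in BS and 1317, 1417 and 1187 in OB. The OB libraries lay close together, and no tumour library reached AG. The log2 change of Lamb2 was -1.34 ± 0.24 (SE; limma, adjusted p = 0.00346) in BS and -1.70 ± 0.24 (SE; limma, adjusted p = 0.00101) in OB.

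The gamma chain Lamc1, common to most laminins, fell in BS. Lamc1 had 12245, 12898 and 12545 normalized reads in AG, 7312, 4949.9 and 5692 in BS and 13403, 9978 and 5429 in OB. BS lay below AG throughout, whereas OB_257 exceeded every AG library. The log2 change was -1.09 ± 0.31 (SE; limma, adjusted p = 0.025) in BS and, not called, -0.48 ± 0.31 (SE; limma, adjusted p = 0.254) in OB, where it was -0.77 and called with OB_257 and BS_287 both left out. The BS call was lost with upper-quartile (-0.88) or quantile scaling (-0.72) and without AG_1 (-1.11), AG_2 (-1.07), AG_3 (-1.09), BS_295 (-0.96) or BS_296 (-1.06). Lamc3 had 2 reads in AG, 5 in BS and 14 in OB, and was not tested.

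**Figure D3:**
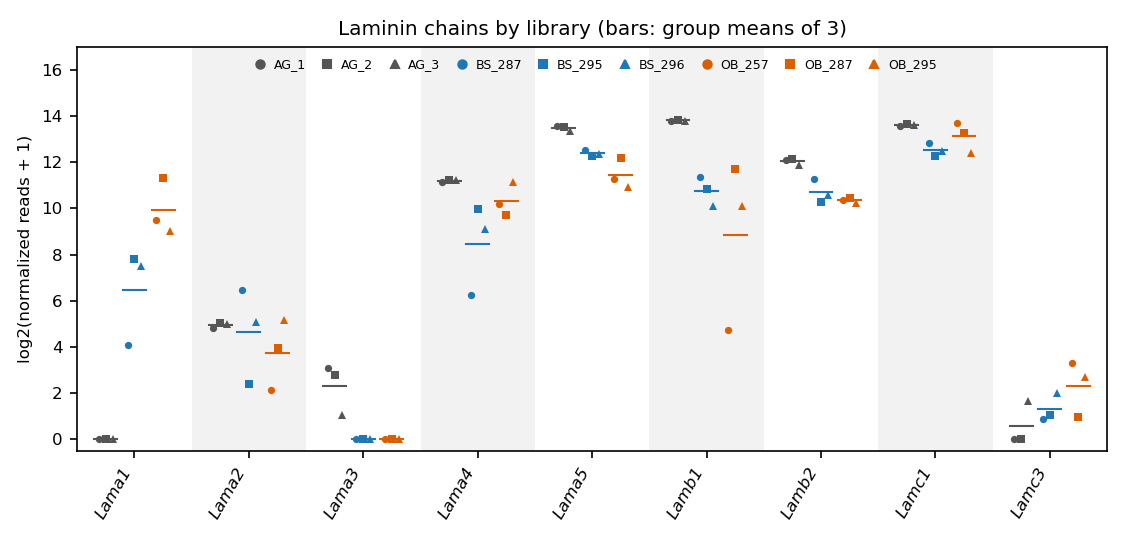
Normalized reads of laminin genes in each library, as log2(normalized reads + 1), grey for AG, blue for BS and orange for OB, with a bar at the mean of the 3 plotted log values of each group. Lama1 is at 0 in AG and at 15.9 or more in every tumour library, and the single low orange point of Lamb1 is OB_257 at 25.4.

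The make-up of each chain class was described per kilobase of transcript, over the members with 1 annotated transcript, so that genes of different length could be set side by side. Lama5 took 72.1% ± 2.18% (SD, n = 3) of the alpha laminin reads per kilobase in AG, 81.9% ± 13.2% in BS and 41.0% ± 11.2% in OB. Lama1 took 0% in AG, 2.45% ± 1.88% in BS and 19.2% ± 12.4% in OB, and Lama4 took 27.7% ± 2.16%, 14.9% ± 12.2% and 39.5% ± 22.6%. OB thus had a lower share of Lama5 in each library than any AG or BS library. Lamb2 took 23.2% ± 1.55% of the reads per kilobase of Lamb1 and Lamb2 in AG, 49.5% ± 8.99% in BS and 60.3% ± 34.7% in OB. Its share was 98.2% in OB_257 and 30.0% in OB_287.

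Among the integrin beta chains so measured, Itgb1 took 98.7% ± 0.0197% of the reads per kilobase in AG, 95.8% ± 1.67% in BS and 97.0% ± 0.58% in OB. Among the alpha chains, Itgav took 90.5% ± 0.672%, 70.4% ± 4.99% and 60.8% ± 10.7%, and Itga4 took 1.79% ± 0.05%, 15.2% ± 10.2% and 25.0% ± 16.0%. The share of Itgav was lower, and that of Itga4 higher, in every tumour library than in every AG library. These shares are a description and were not tested. They leave out chains with several transcripts, such as the laminin receptor chains of Itga3 and Itga6.

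**Figure D4:**
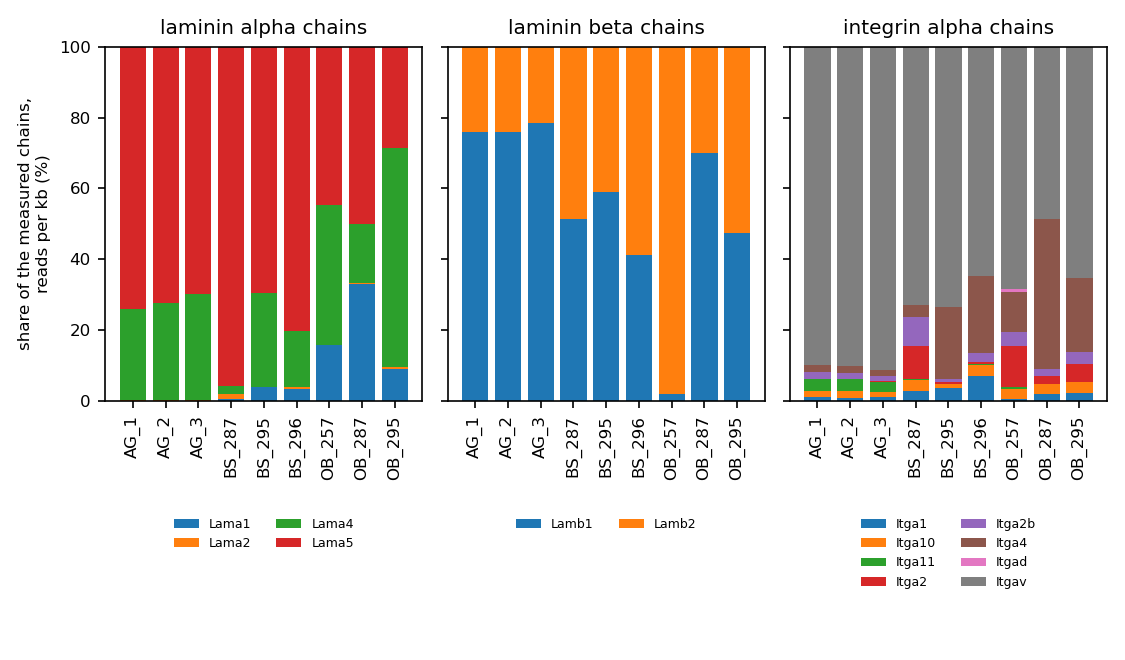
Share of each measured chain in the reads per kilobase of its class, in percent, for each of the 9 libraries, over members with 1 annotated transcript. Lama5 fills most of the AG and BS bars and 28.4% to 49.96% of the OB bars, Lamb1 nearly vanishes in OB_257, and Itga4 takes a wider band in the tumour libraries than in AG.

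Between the 2 tumour groups, limma called 0 of the 22 genes, beside 0% of all genes higher and 0% lower. At an unadjusted p under 0.05 there were 4 members and 1019 genes. Among them were Lama1 (3.48, unadjusted p in limma 0.00736) and Itga2 (1.69, 0.0483), both with more reads in OB, and Lama5 (-0.94, 0.0112), with fewer. The OB and BS libraries of Lama1 and Lama5 did not overlap. edgeR called 0 members, beside 0% of all genes in either direction, and DESeq2 called 1, beside 1.54% of all genes higher and 0.662% lower. Lama5 was called without OB_287 (-1.30), and Itga2 with OB_257 and BS_287 both left out (2.38). Itgb1 differed between OB and BS by 0.19, with a 95% interval of -0.16 to 0.54, and Itgav by -0.20 (-1.04 to 0.64). The limma p-values and intervals rest on a spread estimated over AG, BS and OB together. The spread was smaller in AG (median SD 0.10 beside 0.99 in BS and 0.79 in OB), and Lama1 had none there. For OB against BS the p-values can thus be too low and the intervals too narrow. The fit of the compared groups alone also called 0 members.

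Within the tumour groups the integrin and laminin genes spread widely. The median SD of log2 values within a group was 0.10 for the 22 genes in AG, 0.99 in BS and 0.79 in OB, beside 0.12, 0.47 and 0.48 over all genes. Of the 6 tumour libraries, OB_257 held the lowest value for 9 of the 22 genes (40.9%, beside 25.7% of all genes), among them Lamb1, Itga1 and Itgb8. BS_287 held the highest value for 7 (31.8%, beside 20.3%), among them Lama5, Lamb2 and Itga9. Across the 6 libraries the highest value was 1.44 times the lowest for Itgb1, 2.06 times for Lamb2, 134 times for Lamb1 and 162 times for Lama1.

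The partners of these chains were described from 5 lists. Over all genes tested, 16% were called higher and 19% lower in OB, and 15.6% and 19.5% in BS. The medians over all genes were -0.01 and -0.03. In the list of focal adhesion and integrin activation genes, 15 were tested, of which 6 were lower and 1 higher in OB, and 7 lower and 1 higher in BS, with medians of -1.29 and -1.45. Tln1, the talin that activates integrins, had 27924 to 31942 normalized reads in AG and 4484 to 8568 in the tumour libraries (log2 change -2.16 in OB and -2.31 in BS). Vcl (vinculin) had 19852 to 20824 in AG and 1146 to 3644 in the tumour libraries, Parva (a parvin) had 12807 to 12964 and 725 to 2744, and Rap1b, a small GTPase upstream of talin, had 7894 to 8614 and 2065 to 4531. All 4 fell in both groups. The higher gene was Ptk2, the focal adhesion kinase, with 7.88 to 12.0 in AG and 16.3 to 52.0 in the tumour libraries. It has 3 annotated transcripts, so its low values were not read as a level.

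Of the basement membrane partners of laminin, 14 were tested, of which 8 were lower and 2 higher in each tumour group, with medians of -2.23 in OB and -2.03 in BS. Hspg2 (perlecan) had 41648 to 51804 normalized reads in AG and 2461 to 10672 in the tumour libraries. Pxdn, a peroxidase that crosslinks collagen IV, had 13859 to 14369 and 1947 to 4647. The collagen IV chains Col4a2 (5274 to 6499 against 164 to 3561) and Col4a6 (2438 to 2704 against 2.21 to 110.3) also fell. Fbln1, a fibulin, had 76.2 to 108 in AG and 744 to 2141 in the tumour libraries. Frem2, of the Fraser complex of embryonic basement membranes, had 0 in AG and 77.8 to 972 in the tumour libraries. Fbln1 and Frem2 rose in OB and BS. Frem2 passed the filter only through the tumour groups, and Col4a5, called lower in both, only through AG. The direction of such calls was built into their passing. Fbln1, Frem2 and Ptk2 were named after their values were seen.

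Of the other laminin receptors and the enzymes that glycosylate dystroglycan, 12 were tested, of which 3 were lower in OB, and 3 lower and 1 higher in BS, with medians of -0.66 and -0.30. Over all genes, 19% were called lower in OB, and 19.5% lower and 15.6% higher in BS. Utrn (utrophin) had 8469 to 9025 normalized reads in AG and 542 to 2304 in the tumour libraries, and Bcam, a receptor of the Lama5 chain, had 169 to 187 and 5.03 to 99.99. Utrn and Bcam fell in both groups. Pomt1, an O-mannosyltransferase with 1175 to 1294 in AG and 1522 to 2233 in BS, rose in BS by 0.54 (limma, adjusted p = 0.0423).

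Of the other integrin ligands, 21 were tested, of which 16 were lower and 2 higher in OB, and 14 lower and 1 higher in BS, with medians of -5.91 and -4.79. Tnc (tenascin C) had 322610.0 to 348356 normalized reads in AG, against 7835 to 18681 in BS and 2.21 to 5954 in OB. All tumour libraries lay far below AG. The log2 change was -9.49 (limma, adjusted p = 0.0179) in OB and, not called, -4.79 (limma, adjusted p = 0.168) in BS. OB_257, at 2.21, entered the spread of both comparisons, so the missing call in BS was not read as no fall. Ccn1, a matricellular ligand of integrins, had 42682 to 44459 in AG and 64.6 to 1632 in the tumour libraries. Col1a1 had 35279.8 to 46039.5 and 3.35 to 64.1, and Vcam1, a ligand of the Itga4 integrins, had 18310.1 to 20283 and 5.53 to 905. Tnr (tenascin R), with 0 to 1.09 in AG and 29.4 to 3719 in the tumour libraries, rose in both groups. Tnr passed the filter only through the tumour groups. Tnn, Icam1 and Spp1, called lower in both groups, passed only through AG. The direction of such calls was built into their passing. Jam3, a junctional adhesion molecule with 1957 to 2068 in AG and 2692 to 4548 in OB, rose in OB. Tnr and Jam3 were named after their values were seen.

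The last list held integrin-associated membrane proteins, and also Ext1 and Itgbl1, both called lower in OB and BS. Of its 14 tested genes, 9 were lower in each tumour group, with medians of -2.14 and -2.03. Cav1, among the 9, passed the filter only through AG. Cd9, a tetraspanin, had 21354 to 23099 normalized reads in AG and 803 to 3697 in the tumour libraries. Ext1, which builds heparan sulfate, had 9487 to 9869 and 2194 to 3742. The syndecans Sdc4 (13440.0 to 13688 against 13.3 to 439) and Sdc1 (4263 to 4708 against 554 to 1593) fell in both groups too.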

How the data were processed

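RNA was extracted with Sepazol and made into libraries with an Illumina TruSeq Strand HT kit from 1 ug of total RNA, and sequenced on a HiSeq3000, per the labels' protocols. Tools in the submitters' processing notes are HISAT2 2.1.0, bcl2fastq 1.8.4, DESeq2 1.20.0 and Subread 1.6.2 with featureCounts, on build mm9, without role or order. Not given in the sources used here are how reads were annotated, how strand was set and how shared reads were treated. The authors deposited a signal value for each of 16260 RefSeq transcripts in 9 libraries. Each deposited signal is a read count divided by 1 size factor per library (0.905 to 1.20), since 100% of values became whole reads within 0.05 reads once the factor was undone.

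Transcripts were named by RefSeq (16202) or GENCODE vM21 (41), 17 without a name were left out, and values were added per symbol (14771 genes, 1284 of them with more than 1 transcript in the table). The test was limma 3.58.1 (run in R 4.3.3) on log2(value + 1), fitting each group mean in 1 fit of 9 libraries. It was two-sided, with a trend in the variance. Benjamini-Hochberg adjustment was over the 10576 genes with at least 10 normalized reads in at least 3 libraries. The code was also run on simulated reads with the same dispersion in every group. That run does not cover the unequal spread of AG and tumour libraries seen here. A fold on this scale understates the change of low genes. edgeR 4.0.16 and DESeq2 1.42.0 on the recovered reads were alternatives. Floors are 3 reads per library. Intervals of read ratios are Clopper-Pearson at 95%. Lengths are those of the paired GENCODE transcripts, in bases. Promoters come from RefSeq (GRCm38.p6), another build than the table, so no positions are given for the measured transcripts. Protein sequences were not used here.

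Members called in any comparison whose highest group mean reached 50 normalized reads are given by library, the others by ranges, and up to 4 called genes of each of the 5 partner lists are named by their mean over all libraries. The members, the 5 partner lists and the 10 marker lists were chosen with earlier results of these data known. The replicate numbers did not pair the libraries in the main fit. Results of some genes that enter these counts are not reported here.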

Additional observations from a re-analysis of the deposited data

How the results depend on the processing

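Results were recomputed under 26 alternatives, of which up to 25 bear on a comparison with AG: other pseudocounts and filters, upper-quartile and quantile scaling, other limma settings, edgeR, DESeq2, rows not summed, the replicate block, and each library left out. Of the 24 called changes against AG, 12 held in all 25, among them both changes of Lama1. Another 3 held wherever they were tested. Both changes of Itga11 were tested in 22, as it did not pass the filter without AG_1, AG_2 or AG_3. The OB change of Itgb7 was tested in 20. Itgb7 did not pass without OB_257, OB_295 or BS_287, without both OB_257 and BS_287, or at 50 reads. Lama1, Itga11 and Itgb7 passed the filter only through their higher side, so a difference was built into their calls. None of the 24 changed sign, and 0 results reversed. Alternatives that alter only the filter, the threshold, the variance model or a library outside the comparison leave a log2 change as it is. Those alternatives could not show a change of sign. Of the 42 comparisons of a member that were not called, 13 changed sign in at least 1 alternative.

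With 1 library left out, the number of called members ranged from 7 to 12 in OB (11 with all libraries), from 6 to 13 in BS (13), and from 0 to 1 between OB and BS (0). The lowest counts came without AG_1 or AG_2 (7 each in OB) and without AG_1, AG_2 or AG_3 (6 each in BS). Leaving out AG libraries also lowered the calls over all genes, in BS from 1652 higher and 2060 lower to 999 and 1036 without AG_1, with 10173 genes tested. The call between OB and BS was Lama5, without OB_287. Without OB_287, 46 of 10413 genes were higher and 21 lower. DESeq2 called 1 member between OB and BS, beside 163 genes higher and 70 lower of 10576. With OB_257 and BS_287 both left out, an alternative chosen after seeing the data, 14 members were called in OB, 15 in BS and 1, Itga2, between OB and BS. The calls over all 10258 genes tested then rose as well, to 2153 higher and 2505 lower in OB (1687 and 2008 with all libraries), 2108 and 2572 in BS, and 41 and 22 between OB and BS. The other totals stayed within 1.5 times the reported ones.

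Upper-quartile scaling lowered the count of members lower in BS from 11 to 7, and that of all genes from 2060 to 1674. The count in BS was also 7 without BS_295 or BS_296, where that of all genes was 1923 and 1777. Without any 1 AG library the lower calls were 5 in BS and 5 in OB (8 with all libraries). Lower calls over all genes fell as well. Without AG_1, AG_2 or AG_3 they numbered 1036, 1024 and 1042 for BS. For OB they numbered 1027, 1036 and 1048, beside 2008 with all libraries. BS_287 and OB_287 share a number in their names, as do BS_295 and OB_295, though no label explains these numbers. Their deviations from the group means correlated at 0.07 and 0.30, and BS_287 correlated more with OB_257 (0.22). With the number as a random replicate block (consensus correlation 0.13), 11 members were called in OB, 12 in BS and 0 between OB and BS, and with a fixed replicate block in the tumour libraries alone 0 between OB and BS. Itga3, Itgad, Itgax, Itgb2, Itgb4, Lama3 and Lamc3 had at most 19 reads in a group, too few to test, and for all but Itgad and Lamc3 the part of their several annotated transcripts in this was not tested. The tumour values of Itga11 rest on few reads. The cause of the lost and gained calls was not tested.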
